A study of Hydractinia symbiolongicarpus with 45 samples.

Results

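Poly(A)+ RNA-seq libraries of Hydractinia symbiolongicarpus embryos raised to 7 h post fertilization (h.p.f.) in 20 µM Triptolide were compared with poly(A)+ libraries of unfertilized eggs. The comparison rests on 5 of the 45 libraries of the series, which were chosen by label: 2 Triptolide libraries, from clutches D and G, and 3 egg libraries, from clutches A, C and D. All animals were wild type, each library came from whole eggs or a pool of whole embryos, and only clutch D stands in both groups. Triptolide was dissolved in DMSO and was in the dish from 30 min post fertilization until collection. Embryos of clutches D and G raised in parallel in 0.5% DMSO (2 libraries), untreated embryos collected from 0.5 to 7 h.p.f., and rRNA-depleted libraries built from the same samples serve as references.

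Hydractinia is a colonial cnidarian whose egg, like other animal eggs, is loaded with mRNA by the mother. Triptolide stops initiation by RNA polymerase II, so in treated embryos the mRNA pool is expected to be maternal, and its decay and the lengthening or shortening of its poly(A) tails can go on without new transcription. Selection on oligo(dT) recovers long-tailed mRNA well and short-tailed mRNA poorly. A gene's poly(A)+ level therefore reads both how much mRNA is present and how well it is tailed, while an rRNA-depleted library reads mRNA with little regard to the tail. In these whole-organism samples, fewer cells of a type and less RNA per cell cannot be told apart, and the levels are relative to the total of each library.

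The egg poly(A)+ libraries held 20530081 to 30039305 estimated counts, and the Triptolide libraries held 16784259 (clutch D) and 15940553 (clutch G). The gene models come without names, so genes are given by their identifiers, and a name is added only where the study gives one. Levels are in TPM, the counts divided by coding length and scaled to the same total in every library.

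The treatment was checked first on genes that the study names as switched on in the embryo. HyS0062.47, a forkhead-box transcription factor gene, had 0.409, 0.513 and 0.249 TPM in egg clutches A, C and D and 0.583 and 0.456 TPM in Triptolide clutches D and G, against 493 and 531 TPM in the DMSO embryos. The Triptolide libraries lay at the egg level and far below DMSO. HyS0101.18, a predicted ammonium transporter gene, had 1.01 ± 0.0941 TPM (SD, n = 3) in eggs, 1.11 ± 0.0316 TPM (SD, n = 2) with Triptolide and a mean of 1075 TPM in DMSO. HyS0057.112, a likely homolog of the transcription factor Sp5, had means of 1.25, 1.47 and 91.5 TPM in the same order. None of the 3 was called different from the egg (edgeR quasi-likelihood test, adjusted p = 0.943 to 1). Of 2956 genes that rose from under 1 TPM in the egg by 7 h.p.f. in untreated embryos, 1759 were lower with Triptolide than with DMSO (59.51%, beside 18.9% of all genes tested), and 4 were higher (beside 5.04%). Not all of them stayed at the egg level with Triptolide. Against the egg, 140 of the 2956 were higher in poly(A)+ (beside 12.5% of all genes) and 21 lower (beside 16.9%). In rRNA-depleted libraries 190 of the 2487 tested were higher (beside 11.5%) and 13 lower (beside 11.9%). The list was chosen for low egg levels, so these counts are a description.

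Poly(A)+ levels fell for more genes than they rose. Of 18928 genes tested, 3192 were lower in Triptolide embryos than in the egg (16.9%) and 2364 were higher (12.5%). The falls were also larger: 2239 genes fell over 2-fold, 1011 over 4-fold and 297 over 10-fold, while 672 rose over 2-fold, 138 over 4-fold and 31 over 10-fold. The median log2 fold change was -1.45 among the genes called lower (quartiles -2.30 and -0.91) and 0.74 among those called higher (quartiles 0.57 and 1.07). Among the 11111 genes with at least 1 TPM in the egg, 3137 fell and 2165 rose, and the median over all of them was 0.01.

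Both Triptolide libraries lay below all 3 egg libraries for 3188 of the 3192 lower genes, an arrangement found for 24.5% of all genes tested. They lay above them for 2354 of the 2364 higher genes, found for 26.2%. The genes were called from these same libraries, so the counts are a description. The lower genes held 21.5%, 23.4% and 22.6% of the TPM in egg clutches A, C and D and 8.25% and 9.01% in Triptolide clutches D and G. The higher genes went from 16.9%, 18.5% and 18.6% to 29.2% and 28.2%.

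**Figure D1:**
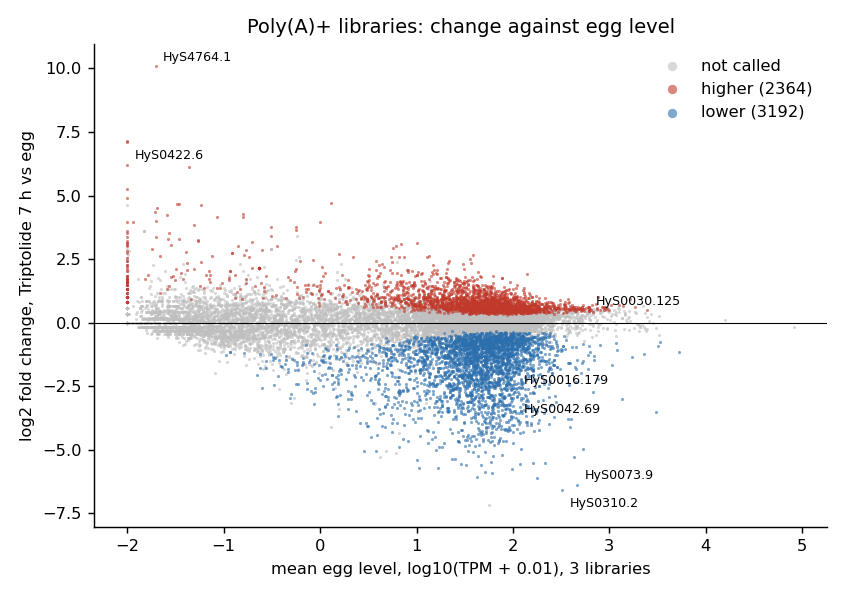
Each point is a gene tested in poly(A)+ libraries, with its mean egg level on the x axis (log10 of TPM + 0.01) and its log2 fold change, Triptolide 7 h against egg, on the y axis. Red marks the 2364 genes called higher and blue the 3192 called lower; the lower genes reach further from 0 at middle and high egg levels.

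The clutches were compared in libraries that do not overlap. With clutch D alone, its Triptolide library against its egg library, 2130 genes were lower (11.3%) and 508 higher (2.69%), with the spread taken from the other groups. In the libraries not used for those calls, Triptolide clutch G lay below both egg clutches A and C for 2121 of the 2130 lower genes (99.6%) and above both for 505 of the 508 higher genes (99.4%). Over all 18886 genes of that fit, clutch G lay below both for 28.4% and above both for 34.6%. With the clutch as a replicate block the counts were 2474 lower and 875 higher. The number of higher genes was less stable than the number of lower genes: without egg clutch A, C or D it was 1494, 1455 or 1449, and without Triptolide clutch D or G it was 1268 or 1592, while the lower genes ranged from 2460 to 3269.

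The largest falls in poly(A)+ level were close to complete. HyS0310.2 had 383, 310 and 284 TPM in egg clutches A, C and D and 2.98 and 3.57 TPM in Triptolide clutches D and G. The Triptolide mean was 1.01% of the egg mean (log2 fold change -6.59, SE 0.47, adjusted p = 4.1e-09). The DMSO libraries, at 38.0 and 35.0 TPM, lay between the groups. HyS0073.9 went from 397, 586 and 418 TPM to 3.775 and 7.16 TPM (log2 fold change -6.37, SE 0.35, adjusted p = 3.1e-10), with a DMSO mean of 55.1 TPM. Both genes were already far below the egg in untreated embryos at 2 h.p.f., with means of 47.0 and 53.7 TPM. Without selection for the tail more was left. In rRNA-depleted libraries HyS0310.2 had means of 300 TPM in the egg, 40.8 TPM with Triptolide and 38.3 TPM in DMSO. HyS0073.9 had 419, 70.3 and 64.5 TPM in the same order.

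The Smaug homolog, an example gene of clearance and a predicted microRNA target fell as well. HyS0016.179 encodes a homolog of Smaug, an RNA-binding protein that in Drosophila brings the CCR4-NOT deadenylase to maternal mRNA. Its level was 95.3, 121 and 107 TPM in egg clutches A, C and D and 15.3 and 19.0 TPM in Triptolide clutches D and G (log2 fold change -2.62, SE 0.21, adjusted p = 1.8e-08). In DMSO it had 44.3 and 48.9 TPM, so its poly(A)+ level was lower with Triptolide than with DMSO (log2 fold change -1.48, adjusted p = 5.4e-05). In rRNA-depleted libraries it had 90.8 and 92.2 TPM with Triptolide and 71.6 and 68.8 TPM with DMSO. This was the other direction and was not called (log2 fold change 0.20, adjusted p = 0.13). The median of this rRNA-depleted comparison over the 11111 genes with at least 1 TPM in the egg was 0.23, so 0.20 lay near the general shift. HyS0042.69 is the study's example gene for clearance. Its level went from 106, 116 and 103 TPM to 6.29 and 9.38 TPM (log2 fold change -3.76, SE 0.21). HyS0020.263, a predicted metabotropic glutamate receptor gene and predicted microRNA target, went from 16.0, 19.1 and 13.96 TPM to 1.98 and 2.21 TPM (log2 fold change -2.91, SE 0.24). Against DMSO, edgeR called HyS0042.69 and HyS0020.263 lower with Triptolide in poly(A)+ (log2 fold change -1.10 and -1.26, adjusted p = 5.2e-04 and 8.7e-04). In rRNA-depleted libraries edgeR called both higher with Triptolide than with DMSO (log2 fold change 0.36 and 0.60, adjusted p = 0.017 and 0.011). These values stand beside the same median of 0.23, and 17.9% of all genes tested there were called higher. For these 3 genes both Triptolide libraries lay below all egg libraries, as for 24.5% of all genes tested and 3188 of the 3192 called lower.

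The 5 predicted maternal transcription factor genes followed here did not move together. They were taken because the study or an earlier report on it names them by identifier, and the study predicts further ones. Of the 5, 1 fell (beside 16.9% of all genes), 1 rose (beside 12.5%) and 3 were not called in poly(A)+. Etv3 (HyS0030.200), an ETS-family factor, fell from 160, 168 and 169 TPM to 20.2 and 27.8 TPM (log2 fold change -2.76, SE 0.38, adjusted p = 1.4e-05), and had 22.2 and 13.4 TPM in DMSO. Rfx7 (HyS0003.78), of the winged-helix RFX family, rose from 318, 402 and 385 TPM to 563 and 481 TPM (log2 fold change 0.53, SE 0.18, adjusted p = 0.031), a call lost with the clutch as a block (adjusted p = 0.13) and without any 1 of egg clutches A, C and D or Triptolide clutch D (adjusted p from 0.11 to 0.29). E2f2 (HyS0045.22), a cell cycle factor, stood at 348 ± 55.7 TPM in eggs (SD, n = 3) and at 354 ± 2.31 TPM with Triptolide (SD, n = 2). Sox4 (HyS0005.469), an HMG-box factor, had 195 ± 11.2 and 197 ± 0.765 TPM. Polynem (HyS0098.14), a POU-domain factor of Hydractinia stem cells, had 33.7 ± 13.2 and 26.7 ± 0.634 TPM. None of the last 3 was called in poly(A)+ (adjusted p = 0.57 to 1), and E2f2 was called higher than the egg in rRNA-depleted libraries (log2 fold change 0.43, adjusted p = 0.013).

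Linker histone H1.4 and the 2 maternal genes among the predicted H4K20 methyltransferases differed from their egg levels by less than 2-fold. Linker histone H1.4, encoded by 2 gene models with identical counts (HyS0030.125 and HyS2746.2), had 658, 578 and 602 TPM per model in egg clutches A, C and D and 863 and 830 TPM in Triptolide clutches D and G. This rise was small (log2 fold change 0.48, SE 0.17, adjusted p = 0.035) and was not called with the clutch as a block (adjusted p = 0.14) or without egg clutch C or D or either Triptolide clutch (adjusted p from 0.10 to 0.26). HyS0034.48, a predicted methyltransferase of histone H4 lysine 20, stood at 267 ± 31.7 TPM in eggs (SD, n = 3) and 339 ± 19.6 TPM with Triptolide (SD, n = 2; adjusted p = 0.17). HyS0117.8, the other maternal gene of that group, had 13.9 ± 0.860 and 18.8 ± 2.78 TPM (adjusted p = 0.77). DESeq2 called HyS0034.48 higher (log2 fold change 0.41, DESeq2 adjusted p = 0.0498) and did not call HyS0117.8.

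Most predicted H4K20 methyltransferase genes that the study places after genome activation were near 0 in both groups. All 13 genes of its 4 h.p.f. group had mean levels of at most 0.0608 TPM in the egg and at most 0.200 TPM with Triptolide, and the median in DMSO was 3.18 TPM. Of the 13, 1 was called higher than the egg (beside 12.5% of all genes): HyS0082.41, with 0 counts in the egg libraries and 0.0427 and 0.133 TPM with Triptolide (adjusted p = 0.048, lost with the clutch as a block and without any single egg or Triptolide library). DESeq2 called 4 of the 13, all of them higher, and it called 3302 genes higher in all, beside 2364 by edgeR. Of the 9 genes of the 7 h.p.f. group, edgeR and DESeq2 each called 0, and 1 had an unadjusted p under 0.05. HyS0109.11 of this group had 2.42, 2.38 and 2.74 TPM in egg clutches A, C and D and 3.23 and 3.18 TPM with Triptolide (adjusted p = 0.16), and the other 8 had means of at most 0.168 and 0.273 TPM. Against DMSO, 10 of the 13 and 9 of the 9 were lower with Triptolide, beside 18.9% of all genes tested. Since the study grouped these genes from libraries of the same series, their low level in the egg and rise in the DMSO embryos are not independent evidence.

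**Figure D2:**
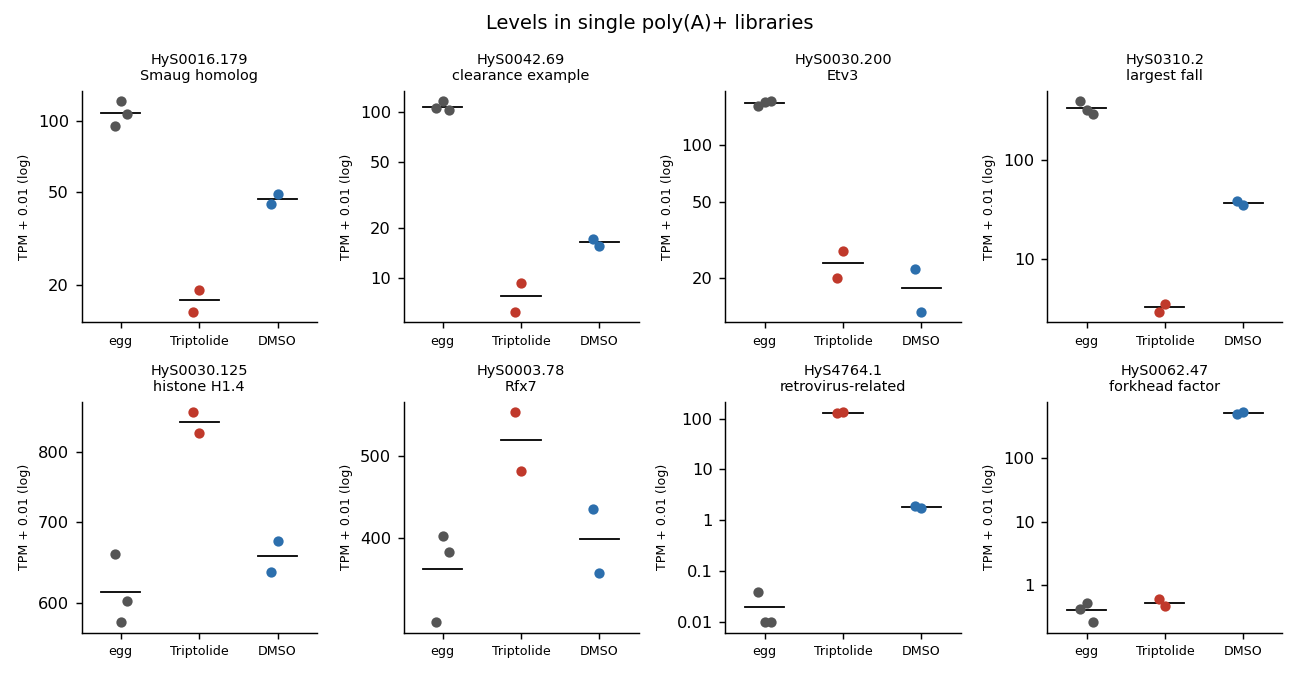
TPM of 8 named genes in single poly(A)+ libraries, on log axes (TPM + 0.01), for egg clutches A, C and D and for Triptolide and DMSO clutches D and G; lines mark means. Smaug, HyS0042.69, Etv3 and HyS0310.2 lie below the egg with Triptolide, H1.4 and Rfx7 lie above it by less than 2-fold, HyS4764.1 is high with Triptolide only, and the forkhead gene HyS0062.47 is high in DMSO only.

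A few genes rose from almost nothing. Of the 2364 higher genes, 2051 had at least 5 TPM in the egg and 199 had less than 1 TPM, of which 14 reached 5 TPM with Triptolide. These 14 were picked by their Triptolide level, so their other calls are a description: 11 were called higher than the egg in the rRNA-depleted libraries (beside 11.5% of all genes), and against DMSO in poly(A)+ 6 were called higher and 1 lower. HyS4764.1, which the study describes as similar to a retrovirus-related reverse transcriptase, showed the largest rise. It had 1 estimated count over the 3 egg libraries and 128.9 and 133.8 TPM in Triptolide clutches D and G, against 1.93 and 1.75 TPM in DMSO. The ratio of its share of counts was 10830 (95% exact interval 1943 to 427859, counting error only). HyS0422.6, another gene of this kind, had 0 counts in the egg libraries and 14.8 and 9.84 TPM with Triptolide, at least 210-fold higher against a floor of 3 counts over the 3 egg libraries, and 0.356 and 0.472 TPM in DMSO.

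The other retrovirus-related reading frames rose to a much lower level. HyS4714.1 had 0.144, 0.222 and 0.149 TPM in egg clutches A, C and D, 1.06 and 1.46 TPM with Triptolide, and 34.1 and 42.9 TPM in DMSO. HyS4716.1 and HyS4654.1 had means of 0.654 and 0.595 TPM with Triptolide and 21.6 and 29.5 TPM in DMSO. All 3 were called higher than the egg (adjusted p = 4.4e-04 to 0.0081) and lower than DMSO. The study names HyS4764.1 and HyS0422.6 for their level under Triptolide and the other 3 as activated genes, so no count over the 5 is read against the 12.5% of all genes called higher. The call for HyS4714.1 was lost with the clutch as a block (adjusted p = 0.056). HyS3782.4, taken by the size of its rise, had no whole count in the egg libraries and 25.2 and 27.5 TPM with Triptolide, at least 403-fold higher against the same floor. Its rRNA-depleted egg libraries had 20.8, 6.46 and 0 TPM in clutches A, C and D, beside 7.46 and 13.0 TPM with Triptolide, and its DMSO poly(A)+ libraries had 20.2 and 23.7 TPM.

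The replication-dependent histone array gave little poly(A)+ signal, as mRNA of this class ends in a stem-loop and usually carries no tail. Its 167 gene models fall into 7 sets of identical counts, so reads cannot be placed among the copies. Together they took 0.00275%, 0.00225% and 0.00233% of the counts in egg clutches A, C and D and 0.00604% and 0.00702% with Triptolide. In rRNA-depleted libraries the share was 0.124% to 0.143% in the egg, 0.224% and 0.223% with Triptolide, and 4.85% and 4.25% in DMSO. Of the 167 models, 27 were called higher than the egg in poly(A)+ (beside 12.5% of all genes), all copies of the sequence of HyS0051.1. In rRNA-depleted libraries 117 models were called higher (beside 11.5%). Models with identical counts are called together, so with only 7 sets neither count is read against the share of all genes. With identical models summed, the sequence of HyS0385.3 was called higher in poly(A)+ as well (log2 fold change 2.46, adjusted p = 0.037).

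The rRNA-depleted libraries of the same samples show how much of each poly(A)+ change was also seen without selection for the tail. Among 15944 genes tested there, 1890 were lower than the egg (11.9%) and 1836 higher (11.5%), or 2068 and 1273 with size factors by relative log expression (RLE). Of the 3192 genes lower in poly(A)+, 1629 were lower in the rRNA-depleted libraries too (51.0%), 43 were higher and 1520 were not called. The rRNA-depleted median over these genes was -0.53, beside -1.45 in poly(A)+. Of the 2364 genes higher in poly(A)+, 926 were higher (39.2%), 14 lower and 1411 not called among the 2351 tested, and the medians were 0.74 and 0.37. Without Triptolide clutch D or G the rRNA-depleted libraries gave 549 or 825 higher genes, and without clutch D 1255 lower genes.

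Whether the change differed by library type was tested directly, in 1 fit over 43 libraries and 19461 genes. In all, 1252 genes were relatively lower (6.43%) and 1061 relatively higher (5.45%) in poly(A)+. That fit did not pair the libraries built from the same RNA. The split depended on the scaling and on the pairing. RLE factors gave 1666 and 645. The median difference over genes with at least 1 TPM in the egg was 0.17 by the weighted trimmed mean (TMM) and -0.01 by RLE. With the sample as a block, which pairs these libraries, 2145 genes were relatively lower and 2897 relatively higher, the reverse order. The calls used below come from the unpaired fit. Without Triptolide clutch D or G in rRNA-depleted libraries the relatively higher genes numbered 701 or 645, and without poly(A)+ clutch D 653. These tests use the poly(A)+ libraries that made the calls against the egg, so the counts within those calls are descriptions: 1249 of the 3192 lower genes were relatively lower (39.1%) and 856 of the 2364 higher genes relatively higher (36.2%).

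Among the lower genes, 668 were both relatively lower in poly(A)+ and called lower in rRNA-depleted libraries, with medians of -2.72 and -0.99. For 581 the difference was called without a fall in rRNA-depleted libraries, with medians of -1.39 and -0.03. For 961 the fall was called in both types and no relative fall was called in poly(A)+, with medians of -1.51 and -1.11. The median difference over these 961 was -0.21. For 982 neither a relative fall nor a fall in rRNA-depleted libraries was called, with medians of -0.89 and -0.20. Among the higher genes, 599 were relatively higher in poly(A)+ without a called rise in the rRNA-depleted libraries, with medians of 0.93 and 0.15. For 257 both were called, with medians of 1.045 and 0.39. For 669 only the rise in rRNA-depleted libraries was called, with medians of 0.59 and 0.49. For 839 neither was called, with medians of 0.69 and 0.35.

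HyS0021.110 had the largest relative fall among genes with at least 5 TPM in eggs of both types. Its poly(A)+ level went from 38.6, 46.4 and 40.7 TPM in egg clutches A, C and D to 0.649 and 0.422 TPM in Triptolide clutches D and G, while its rRNA-depleted level went from 45.1, 43.98 and 50.4 TPM to 11.2 and 14.8 TPM. The difference was -4.05 on the log2 scale (SE 0.36, adjusted p = 2.6e-08). HyS0130.7 was next, from 49.7, 58.3 and 45.9 TPM to 0.526 and 1.18 TPM in poly(A)+ and from 98.4, 83.6 and 87.0 TPM to 21.96 and 25.4 TPM in rRNA-depleted libraries (difference -3.79, SE 0.53). Both fell in both library types, and further in poly(A)+. Smaug showed the same order, at -2.62 on the log2 scale with selection for the tail and -0.83 without it (difference -1.55, SE 0.24, adjusted p = 5.6e-05).

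Under the same limit of 5 TPM, HyS0093.1 had the largest relative rise. Its poly(A)+ level went from 11.6, 14.8 and 12.3 TPM to 79.6 and 72.6 TPM, while its rRNA-depleted level went from 157, 155 and 152 TPM to 133 and 136 TPM (difference 2.94, SE 0.24, adjusted p = 6.2e-09). HyS0026.169 went from 6.47, 5.53 and 6.34 TPM to 53.0 and 46.3 TPM in poly(A)+ and from 43.4, 39.4 and 38.4 TPM to 45.9 and 49.2 TPM in rRNA-depleted libraries (difference 2.94, SE 0.34). Neither gene was called in the rRNA-depleted comparison, and both had a low poly(A)+ level relative to the rRNA-depleted level in the egg.

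**Figure D3:**
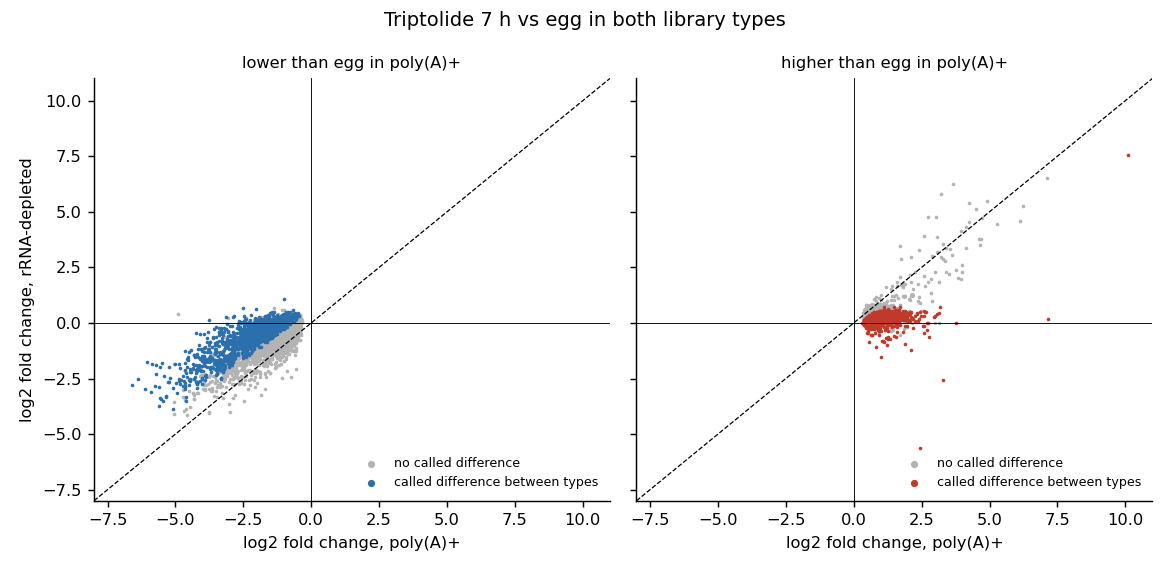
Log2 fold change, Triptolide 7 h against egg, in poly(A)+ (x axis) and rRNA-depleted libraries (y axis) for genes called lower (left) and higher (right) in poly(A)+. Coloured points have a called difference between the types, 1249 on the left and 856 on the right; they lie above the dashed line of equal change on the left and below it on the right.

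The ratio of poly(A)+ to rRNA-depleted level in the egg was set against the later change, with the ratio from egg clutches A and C and the change from clutch D. In 5 bins of 1974 or 1975 genes with at least 5 TPM in eggs of both types, the median log2 change in poly(A)+ was -0.16, -0.26, -0.24, -0.04 and 0.23 from the lowest ratio to the highest. The rRNA-depleted medians of the same bins were -0.14, -0.09, -0.02, 0.10 and 0.22. The lowest bin had the widest spread, with quartiles of -1.10 and 0.56, and the highest bin had quartiles of -0.22 and 0.46. A rise of over 2-fold was found for 254 genes of the lowest bin (12.9%) and 4 of the highest (0.203%), and a fall of over 2-fold for 530 (26.8%) and 193 (9.77%). Coding length moved with the ratio, from a median of 2139 bases in the lowest bin to 792 in the highest, and its part in the pattern was not tested. With the ratio from clutch D and the change of Triptolide clutch G against egg clutches A and C, the medians were -0.10, -0.17, -0.12, 0.02 and 0.21.

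**Figure D4:**
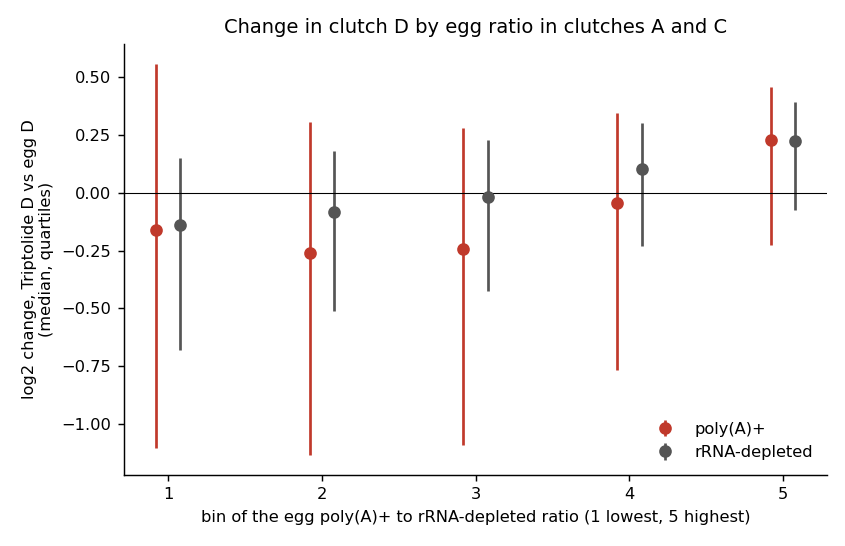
Median and quartiles of the log2 change in clutch D, Triptolide 7 h against egg, for 5 bins of genes ordered by the egg ratio of poly(A)+ to rRNA-depleted level in clutches A and C. Poly(A)+ medians go from -0.16 in the lowest bin to 0.23 in the highest, rRNA-depleted medians from -0.14 to 0.22, and the poly(A)+ quartiles are widest in the lowest bin.

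Genes with long coding sequences were called lower more often. The 5 bins of coding length held 1968 to 1989 genes each, so they do not cover all genes tested. The share of genes called lower in poly(A)+ was 17.3% in the shortest bin (177 to 723 bases) and 38.8% in the longest (from 2562 bases). The median log2 fold change went from 0.19 to -0.20. In the rRNA-depleted libraries the medians of the same bins were 0.17 and 0.07. For DMSO against the egg in poly(A)+ they were 0.17 and -0.33, so the trend was not particular to Triptolide.

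The same genes were followed through untreated development. These comparisons share the egg libraries, so their values are only set side by side. At 0.5, 1, 2, 4 and 7 h.p.f. the genes lower with Triptolide had untreated median log2 fold changes of -0.05, -0.17, -0.40, -0.58 and -1.18 against the egg, beside -1.25 in DMSO and -1.45 with Triptolide. At 2, 4 and 7 h.p.f. the genes higher with Triptolide had medians of 0.21, 0.45 and 0.62, beside 0.70 in DMSO and 0.74 with Triptolide. At 5 and 6 h.p.f. the higher genes had medians of 0.27 and 0.42, below the 0.45 at 4 h.p.f., and the lower genes had -0.81 and -1.01. The stages at 5 and 6 h.p.f. rest on a single library each, of clutch B, with 3107733 and 4776144 counts. The dip in the higher genes therefore cannot be told apart from the change of clutch and depth. The stages at 0.5 and 1 h.p.f. also rest on a single library each, of clutch A.

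**Figure D5:**
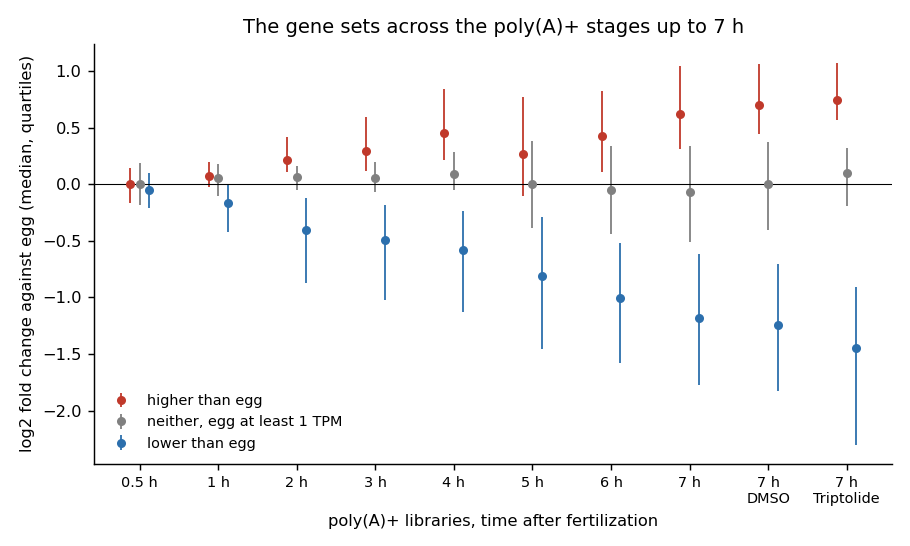
Median and quartiles of the log2 fold change against the egg in poly(A)+ libraries for genes higher (red), lower (blue) or neither (grey) with Triptolide, in untreated embryos up to 7 h.p.f., DMSO embryos and Triptolide embryos. The lower genes are at -0.40 by 2 h.p.f. and the higher genes at 0.21.

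Treated and mock-treated embryos of the same clutches and age were compared for genes cleared early and late in untreated development. The lists were made from egg and untreated poly(A)+ libraries, which are not in the groups compared here. In poly(A)+ those libraries do share the fit that sets the spread, and some come from clutch D, so the lists are not fully independent of the test. Of 614 genes first called at least 2-fold below the egg at 2 to 4 h.p.f., 252 were lower with Triptolide than with DMSO (41.0%, beside 18.9% of all genes) and 23 higher (3.75%, beside 5.04%), and the median log2 fold change was -0.48. Of 1523 genes first called at 5 to 7 h.p.f., 98 were lower (6.43%) and 424 higher (27.8%), with a median of 0.40. In the rRNA-depleted libraries, 268 of the early-cleared genes were higher with Triptolide than with DMSO and 36 lower, and 932 of the late-cleared genes were higher and 9 lower, beside 17.9% higher and 14.5% lower of all genes tested. The rRNA-depleted median was 0.39 over the early-cleared genes and 0.64 over the late-cleared genes. Only the early-cleared median differed in sign between the library types. Over all 11111 genes with at least 1 TPM in the egg, this median was 0.23 without selection for the tail and 0.06 with it. Beside these values the early-cleared genes were still higher without selection and lower with it, but 0.39 exceeded 0.23 by little. How much of the 0.39 was this general shift was not tested. The poly(A)+ count of genes higher with Triptolide than with DMSO, 954 in all, was 427 or 353 without Triptolide clutch D or G and 178 without DMSO clutch G, and the 3568 lower genes became 2217 without Triptolide clutch D.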

How the data were processed

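Poly(A)+ and rRNA-depleted libraries were built in parallel from whole eggs and embryos. The authors trimmed reads with Trim Galore 0.6.6 and deposited estimated counts per Hsym v1.0 gene model from kallisto 0.46.1, with the coding length of each model; these are not scaled to depth. Of 22022 identifiers, 0 matched the reference table used here. No column was left unmapped. Counts were rounded and tested with edgeR 4.0.16 (R 4.3.3; quasi-likelihood, TMM, Benjamini-Hochberg 0.05, prior count 2) after dropping genes with fewer than 10 reads in all. The poly(A)+ fit used 25 libraries in 14 groups, and the rRNA-depleted fit 18 in 11. DESeq2 1.42.0 was an alternative. TPM was computed over all models; bins used log2(TPM + 0.5). Pilot libraries were left out. Labels give clutch letters, so Triptolide and DMSO are paired by clutch; their D minus G differences had a correlation of -0.02 across 11111 genes, and egg and Triptolide share 1 clutch. p-values measure only the spread between these few libraries. The fit was tested on simulated data. The members and lists were chosen with earlier results of these data known. Named genes were those the study or an earlier report on it gives by identifier, plus the 2 genes with the largest rise and the 2 with the largest fall (at least 5 TPM in the higher group, libraries not overlapping), and 2 each way for the difference between library types.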

Additional observations from a re-analysis of the deposited data

Results flagged for a closer look

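By the edgeR test of the difference itself (adjusted p under 0.05), the changes from egg to Triptolide 7 h differed between the library types. The difference went toward a higher poly(A)+ level in 1061 genes and toward a lower level in 1252 genes. That fit did not pair the libraries built from the same RNA. Among the genes named here the difference on the log2 scale, poly(A)+ minus rRNA-depleted, was -1.55 for the Smaug homolog HyS0016.179, -1.25 for HyS0020.263, -1.78 for HyS0042.69, -3.55 for HyS0310.2, -3.63 for HyS0073.9, -4.05 for HyS0021.110 and -3.79 for HyS0130.7. It was 2.48 for HyS4764.1, 6.91 for HyS3782.4, 2.94 for HyS0093.1 and 2.94 for HyS0026.169. For HyS0013.295, a predicted H4K20 methyltransferase gene, it was 3.59, with 0.168 and 0.153 TPM in egg and Triptolide poly(A)+ libraries and 0.657 and 0 TPM in the rRNA-depleted ones.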

How the results depend on the processing

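For poly(A)+ against the egg, the higher genes, 2364 in the report, numbered 875 with the clutch as replicate block, 508 with clutch D only, 672 with a 2-fold minimum and 1268 to 1592 leaving out 1 library, while the lower genes stayed within 1.5 times of 3192 under every alternative run. In rRNA-depleted libraries leaving out 1 library gave 549 to 1492 higher and 1255 to 1771 lower genes, and the replicate block gave 2541 and 2126. For the library type difference, relatively higher genes numbered 645 by RLE, 2897 with the sample as replicate block and 645 to 967 leaving out 1 library, and relatively lower genes 2071 by DESeq2, 2537 with the compared groups only and 2145 with the block. Against DMSO, higher genes numbered 1557 by DESeq2, 2610 with the compared groups only and 178 to 735 leaving out 1 library, and lower genes 2217 to 3081. The cause of these changes was not tested. The median of the fourth ratio bin went from -0.04 to 0.023 with the other clutches. Of 548 values of named genes under alternatives, 511 kept their direction and side of the threshold, 33 lost the call and 4 gained it. The groups hold 2 and 3 libraries, and genes near 0 TPM rest on few counts.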
